A study of Oryza sativa with 4 samples.

Results

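The photosynthetic apparatus and Rubisco of rice were examined through 141 loci of the 31453 listed in the deposited expression tables. They were chosen by words in the deposited gene descriptions (chlorophyll A-B binding, photosystem, ribulose bisphosphate carboxylase, plastocyanin, cytochrome b6, apocytochrome f and oxygen evolving) and not by expression values, although the set itself was proposed with earlier results of these data known. The 141 loci held 3 kinds of gene. The first kind was 46 nuclear photosynthetic loci, and the second was 48 plastid-type loci, whose described product is one that the plastid genome encodes although each locus lies on a nuclear chromosome in these tables. The remaining 47 loci are described as plastocyanin-like domain proteins. Such proteins (phytocyanins) are cell surface relatives of the blue copper proteins, distinct from the plastocyanin of the thylakoid, so the label of the set does not cover them and they were kept apart throughout.

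Libraries were made from poly(A)-selected RNA of 2 indica cultivars, Sharbati with 24.88 ppm iron in the brown rice and Lalat with 7.80 ppm. All plants were raised in pots of soil and farm yard manure in a net house, with no treatment named, and developing grain and root were taken 15 days after panicle emergence. Each of the 4 combinations of cultivar and organ had 1 library, so no statistical test was possible and every difference below is one between 2 libraries. How many plants were pooled for a library is not given in the labels. In bulk organs, fewer cells of a type and less RNA per cell cannot be told apart.

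Oxygenic photosynthesis runs through 2 photosystems in the thylakoid membrane of the chloroplast. Light-harvesting antenna proteins bind chlorophyll and pass energy to photosystem II, which splits water with the help of oxygen-evolving proteins. Electrons then pass through the cytochrome b6f complex and plastocyanin to photosystem I, and Rubisco fixes carbon dioxide in the stroma. The complexes are mosaics, because the reaction centre proteins and the Rubisco large subunit come from plastid genes whereas antenna proteins, many small subunits and the Rubisco small subunit come from nuclear genes. Chlorophyll-bearing cells of a developing rice caryopsis lie mainly in its outer layers, while endosperm plastids store starch and root plastids are normally not green.

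Levels are FPKM as deposited (fragment counts scaled to the length of a transcript and the size of a library), which are values per length, and grain and root tables were made by the authors in separate comparisons. Ratios are log2((a + 1)/(b + 1)), where the pseudocount of 1 FPKM understates differences of weakly expressed genes. Compared loci were those above 0 in both libraries with 1 FPKM or more in either. They were counted as apart at 2-fold, a ratio of 1 or more in size. The libraries differed in depth. The FPKM value of a single fragment, read from loci whose deposited p-value marks 1 fragment against none, had a 95th percentile of 0.201 FPKM in Sharbati grain, 0.301 in Lalat grain, 7.14 in Sharbati root and 0.835 in Lalat root. Values below these, called here the range of a single fragment, may rest on very few fragments. Each limit was taken over loci of all lengths, with medians of 0.0302, 0.0402, 1.07 and 0.105 FPKM in that order. As FPKM is a value per length, a long locus below the limit can hold more than 1 fragment. The median FPKM ratio of Sharbati over Lalat, over loci at 1 FPKM or more in both, was -0.29 on the log2 scale in grain and -0.999 in root, and members were read against these shifts. Glutelin and prolamin loci, the endosperm storage proteins, summed to 310234 FPKM (Sharbati) and 182084 FPKM (Lalat) in grain, and to 180.1 and 7037 FPKM in root. The organ labels thus matched these markers, and Lalat root carried more storage transcript than Sharbati root. The part of that difference in the root results was not tested.

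Nuclear photosynthetic loci were weakly expressed in all 4 libraries. Their summed level was 80.0 FPKM in Sharbati grain, 107.6 in Lalat grain, 115.3 in Sharbati root and 218.9 in Lalat root. Single members reached at most 20.2, 18.7, 22.8 and 66.6 FPKM, and only 2, 6, 6 and 7 members reached 5 FPKM. These sums were at most 0.0249% of the summed FPKM of a library. In Sharbati root 16 loci were listed at 0, against 1 in Lalat root, and those 16 lay between 0.0534 and 3.36 FPKM in Lalat root, within or below the range of a single fragment in Sharbati root. Whether they differed between the root libraries was not detectable at this depth. Of the 42 loci listed in both organs, the highest of the 4 libraries was Lalat grain for 14, Lalat root for 13, Sharbati root for 13 and Sharbati grain for 2.

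**Figure D1:**
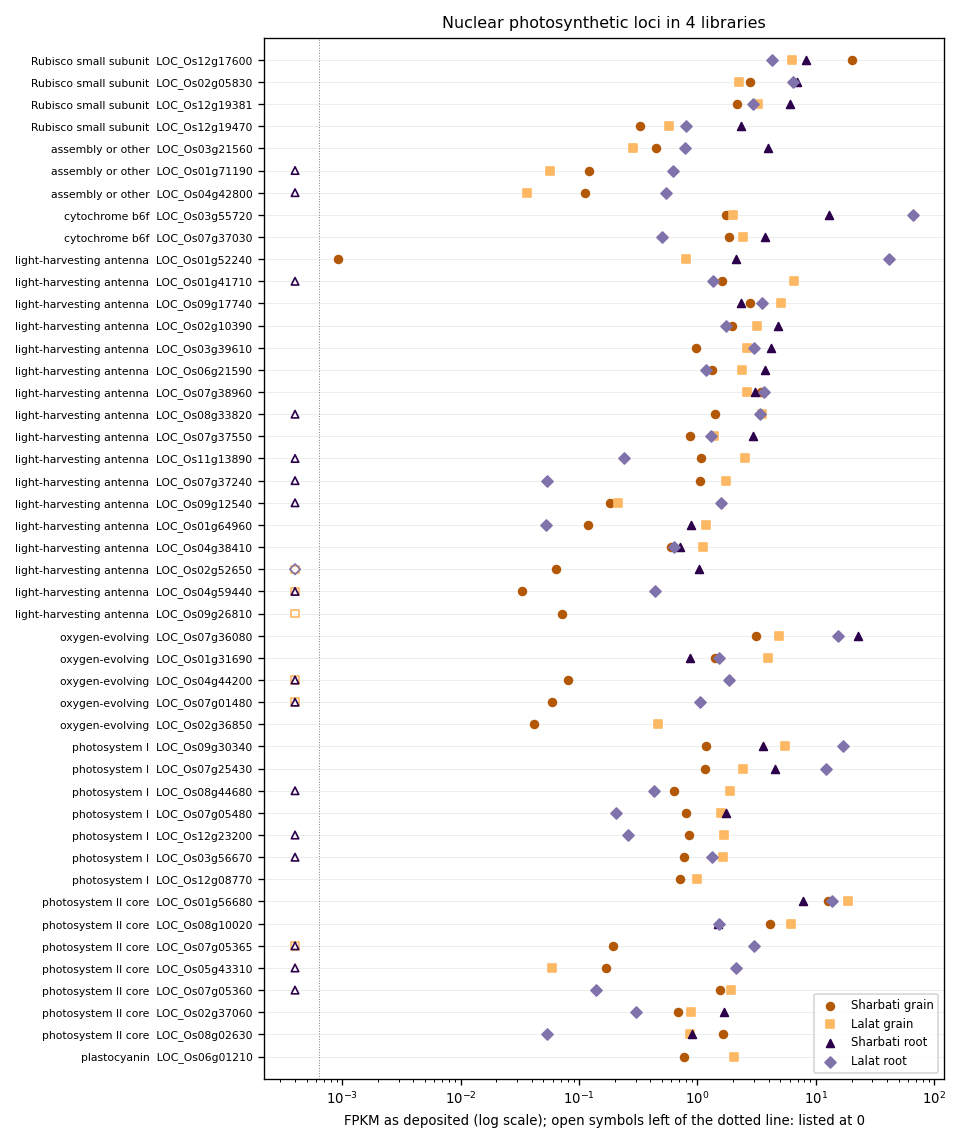
FPKM (log scale) of the 46 nuclear photosynthetic loci in the 4 libraries, 1 symbol per library and 1 library per group, with open symbols for loci listed at 0 and no symbol where a locus is not listed. Most loci lie between 0.1 and 5 FPKM, and 16 open triangles mark loci listed at 0 in Sharbati root.

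In grain, nuclear photosynthetic loci were mostly lower in Sharbati than in Lalat, by small amounts. Of 30 loci compared, 3 were at least 2-fold lower in Sharbati and 1 was at least 2-fold higher, against 17.4% and 6.31% of all 13417 loci compared. The 2-fold counts were thus near or below the background, while the direction was more one-sided, with 26 of the 30 ratios below 0 (86.7%) against 67.8% of all loci. The filter fixed the direction of 10 of these, as 9 reached 1 FPKM in Lalat alone and 1 in Sharbati alone. Among the 20 loci at 1 FPKM or more in both grain libraries, a filter added after seeing the data, 17 were below 0 (85%) against 64.4% of all such loci, with medians of -0.51 and -0.24. With Lalat scaled by the median ratio, the median over the 30 was -0.31 against -0.12 for all loci. For grain, the authors' deposited table called no nuclear photosynthetic locus, while 3.89% of all listed loci were called, and 5 of the 46 had a deposited p-value under 0.05.

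Light-harvesting antenna proteins, the chlorophyll a/b-binding proteins that capture light, made up 17 of the 46 loci. In grain 11 of the 12 compared had a ratio below 0, with a median of -0.61, and 1 was at least 2-fold lower in Sharbati. Of the 12, 4 reached 1 FPKM in Lalat alone, which fixed their direction, and 7 of the 8 at 1 FPKM or more in both libraries were below 0. LOC_Os01g41710 was at 1.62 FPKM in Sharbati grain, 6.55 in Lalat grain, 0 in Sharbati root and 1.35 in Lalat root. It was the highest antenna locus of Lalat grain and was lower in Sharbati grain by a ratio of -1.53 (p = 0.0148 in the authors' deposited table, not called). LOC_Os09g17740 was at 2.78, 5.04, 2.32 and 3.54 FPKM in the same order, so its 4 levels lay close together. LOC_Os07g38960 was at 3.47, 2.64, 3.04 and 3.66 FPKM and was the 1 antenna locus compared with a grain ratio above 0 (0.30). Antenna genes form a family of similar sequences, and how the counting divided fragments among close copies was not given in the sources used here.

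Photosystem I, which passes electrons from plastocyanin to ferredoxin, had 7 nuclear loci. All 6 compared in grain were lower in Sharbati, with a median of -0.61, and 4 of these reached 1 FPKM in Lalat alone. LOC_Os09g30340, described as a reaction center subunit, was at 1.18 FPKM in Sharbati grain, 5.53 in Lalat grain, 3.60 in Sharbati root and 17.05 in Lalat root. Both organs had it higher in Lalat, with ratios of -1.58 in grain and -1.97 in root, but it shares its deposited region with a neighbouring locus. LOC_Os07g25430, subunit IV A (PsaE, at the ferredoxin docking side), was at 1.16, 2.40, 4.49 and 12.2 FPKM in the same order. It was again higher in Lalat in both organs as deposited. Its root ratio was -1.26, beside a general root shift of -0.999, and -0.37 when Lalat was scaled. Scaling left the root ratio of LOC_Os09g30340 at -1.05. The Sharbati root values of both loci lay within the range of a single fragment. LOC_Os08g44680, subunit II (PsaD, which also docks ferredoxin), was at 0.638 and 1.89 FPKM in grain, at 0 in Sharbati root and at 0.432 in Lalat root.

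Photosystem II core and attached small proteins counted 7 nuclear loci. LOC_Os01g56680, a W protein (PsbW, a small membrane subunit), was at 12.7 FPKM in Sharbati grain, 18.7 in Lalat grain, 7.83 in Sharbati root and 13.8 in Lalat root. It was the most abundant nuclear photosynthetic locus of Lalat grain and the second of Sharbati grain, and it shares its deposited region with a glycosyl hydrolase locus. LOC_Os08g10020, a 10 kDa polypeptide (PsbR), was at 4.07, 6.20, 1.49 and 1.52 FPKM, higher in grain than in root in both cultivars. The grain ratios were -0.52 and -0.51, short of 2-fold. The psbY locus LOC_Os08g02630 was at 1.66, 0.863, 0.903 and 0.0538 FPKM and was the 1 member of the group compared that was higher in Sharbati grain (0.51), although it reached 1 FPKM there alone.

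Oxygen-evolving enhancer proteins, which shield and stabilise the manganese cluster that splits water, had 5 loci. LOC_Os01g31690, enhancer protein 1 (PsbO), was at 1.42 FPKM in Sharbati grain, 3.93 in Lalat grain, 0.867 in Sharbati root and 1.53 in Lalat root. Its grain ratio of -1.03 just passed 2-fold and was short of it when Lalat was scaled (-0.80). LOC_Os07g36080, described by an enhancer protein 3 domain, had the opposite organ order at 3.10, 4.89, 22.8 and 15.5 FPKM, and was the highest nuclear photosynthetic locus of Sharbati root. It shares its deposited region with a ribosomal protein L28 locus. The other 3 loci, all of the enhancer protein 3 kind, stayed at 0.463 FPKM or less in grain and 1.85 FPKM or less in root.

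Cytochrome b6f, the complex between the photosystems, had 2 nuclear loci with different patterns. LOC_Os03g55720 was at 1.75 FPKM in Sharbati grain, 1.98 in Lalat grain, 12.9 in Sharbati root and 66.6 in Lalat root. Its level in Lalat root was the highest value of any nuclear photosynthetic locus in the 4 libraries. The iron-sulfur (Rieske) subunit LOC_Os07g37030 was at 1.86, 2.43, 3.73 and 0.501 FPKM. Grain levels of both loci were nearly equal between cultivars (ratios of -0.12 and -0.27, the first 0.07 when Lalat was scaled), whereas in root the first was higher in Lalat (-2.28) and the second higher in Sharbati (1.66). The Rieske value in Sharbati root lay inside the range of a single fragment. The 1 plastocyanin of the thylakoid kind, LOC_Os06g01210, was at 0.768 FPKM in grain of Sharbati and 2.02 in that of Lalat (ratio -0.77) and is not listed for root. The last 3 loci are described as a PSB28 protein, a photosystem II 11 kD protein and a photosystem II repair protein, and 1 of them reached 1 FPKM, the 11 kD protein LOC_Os03g21560 in Sharbati root (3.91).

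The Rubisco small subunit, which caps the catalytic large subunits, had a median grain ratio of 0.22 over 3 loci as deposited, while the other classes with a compared locus had medians from -0.77 to -0.19. LOC_Os12g17600 (chromosome 12, 10080397 to 10081661, on a genome build that was not given in the sources used here) was at 20.2 FPKM in Sharbati grain, 6.24 in Lalat grain, 8.32 in Sharbati root and 4.25 in Lalat root. It was the most abundant nuclear photosynthetic locus of Sharbati grain and the only one at least 2-fold higher there than in Lalat grain, with a ratio of 1.55, or 3.23-fold as plain FPKM. Its deposited p in grain was 0.017 in the authors' deposited table, where it was not called. LOC_Os02g05830 was at 2.78, 2.25, 6.94 and 6.38 FPKM, nearly level between cultivars in each organ and higher in root. LOC_Os12g19381 was at 2.15, 3.27, 6.09 and 2.97 FPKM, and LOC_Os12g19470 stayed below 1 FPKM in all libraries except Sharbati root (2.33). Small subunit copies are similar in sequence, so the division of fragments among these 4 loci is uncertain. Their summed level was 25.4, 12.3, 23.7 and 14.4 FPKM, higher in Sharbati in both organs. The grain difference rested on LOC_Os12g17600, since LOC_Os12g19381 and LOC_Os12g19470 were lower in Sharbati grain and LOC_Os02g05830 was nearly level. In Sharbati root, all of these loci but LOC_Os12g17600 lay within the range of a single fragment.

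**Figure D2:**
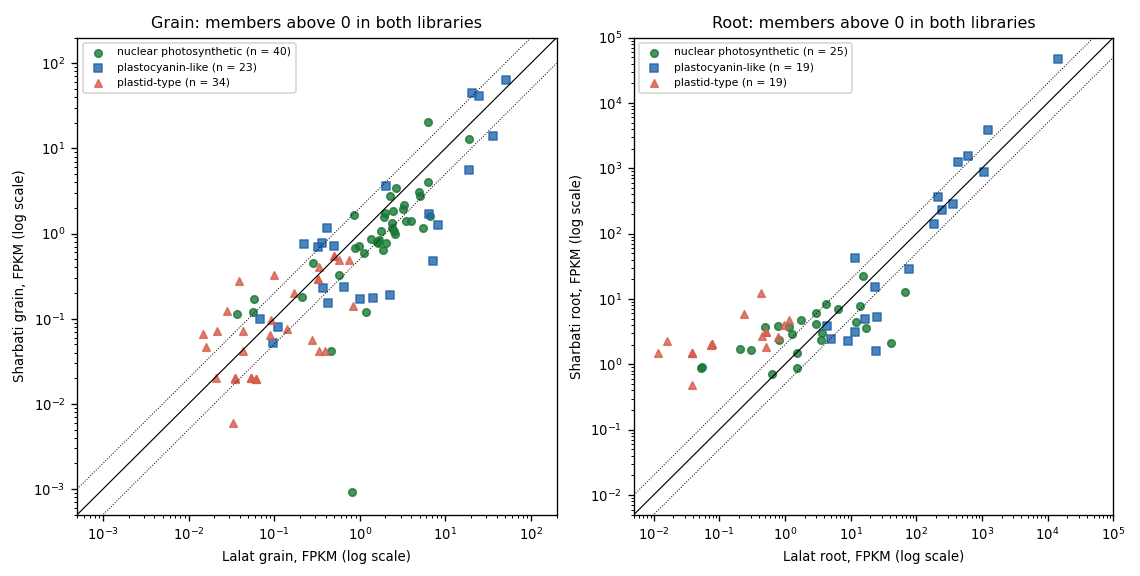
FPKM in Sharbati against Lalat (both log scales) for members above 0 in both libraries of an organ, grain on the left and root on the right, with the line of equality and dotted lines at 2-fold of plain FPKM. Grain points of nuclear photosynthetic loci lie mostly under the line of equality, and root points of plastid-type loci lie above it.

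In root, nuclear photosynthetic loci differed from the general shift between the libraries, with most values near the floor of Sharbati root. Of 22 loci compared, 6 were at least 2-fold higher in Sharbati (27.3%, against 5.51% of all 13653 loci compared) and 4 at least 2-fold lower (18.2%, against 46.7%). The median was 0.45, against -0.92 for all loci. With Lalat scaled by the median ratio, 12 were higher and 3 lower, with a median of 1.13 against -0.03 for all loci. However, 5 of the 22 reached 1 FPKM in Sharbati alone, and 22 of the 26 loci above 0 in Sharbati root lay within the range of a single fragment there. Over the 16 loci at 1 FPKM or more in both libraries the median was 0.04 (all loci -0.91), and over the 9 at 5 FPKM or more in at least 1 library it was -0.75 (all loci -1.06). With loci listed in 1 library counted as 0 in the other, 7 were higher and 12 lower of 31, with a median of -0.21, while all loci under that setting had 60.1% lower and a median of -1.26. None of the 42 loci listed for root was called in the authors' deposited table, where 1.14% of all listed loci were called.

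Above that range in Sharbati root lay 4 nuclear photosynthetic loci, and they differed in direction. LOC_Os07g36080 (ratio 0.53) and the Rubisco small subunit LOC_Os12g17600 (0.83) were higher in Sharbati root, and LOC_Os03g55720 (-2.28) and LOC_Os01g56680 (-0.75, or 0.16 when Lalat was scaled) were lower. The antenna locus LOC_Os01g52240 was at 0.000918 FPKM in Sharbati grain, 0.803 in Lalat grain, 2.12 in Sharbati root and 41.1 in Lalat root. Its root ratio of -3.75 was the lowest of the nuclear photosynthetic loci, and it shares its deposited region with the starch synthase locus LOC_Os01g52250. Rubisco small subunit loci were all 4 above 0 in root, with ratios from 0.11 to 0.89, short of 2-fold as deposited. Scaling placed 3 of them past 2-fold.

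**Figure D3:**
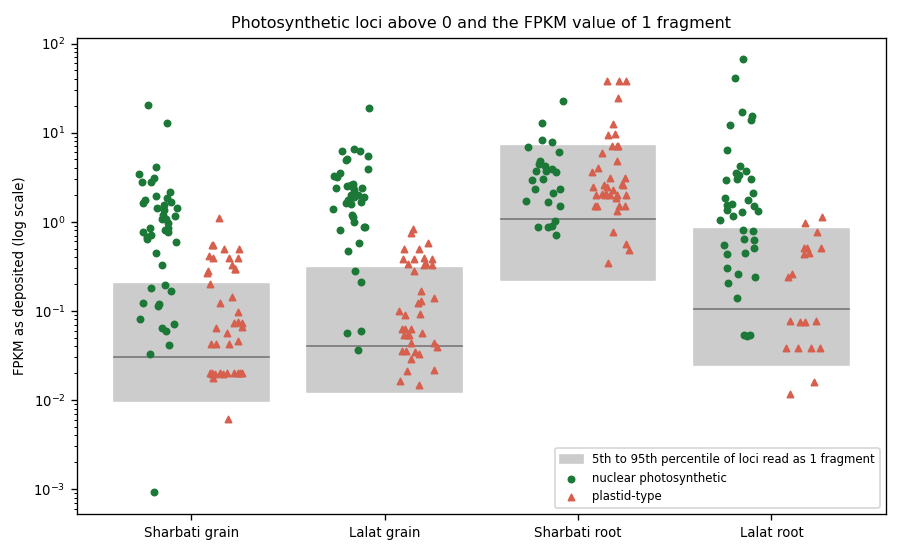
FPKM (log scale) of nuclear photosynthetic and plastid-type loci above 0 in each of the 4 libraries, over grey boxes that span the 5th to 95th percentile of loci read as 1 fragment, with their median as a line. In Sharbati root the box runs from 0.223 to 7.14 FPKM and holds most points, and in the grain libraries most nuclear photosynthetic points lie above it.

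Between organs, nuclear photosynthetic loci were mostly lower in grain in Sharbati and went both ways in Lalat. Each organ contrast shares its libraries with the cultivar contrasts above. In Sharbati, 12 of 24 nuclear photosynthetic loci compared were at least 2-fold lower in grain than in root and 2 were higher, against 51% and 14% of all 12648 loci compared, with a median of -0.996 beside -1.04 for all loci. These shares were near the background. Of those 24, 8 reached 1 FPKM in root alone and 2 in grain alone, which fixed their direction. Over the 14 at 1 FPKM or more in both the median was -0.996 (all loci -0.45). With loci at 0 or unlisted in 1 library kept, 7 were higher and 12 lower of 29, with a median of -0.73 (all loci -0.80). In Sharbati root, 22 of the 26 values above 0 lay within the range of a single fragment. In Lalat, 8 of 31 were at least 2-fold lower in grain (25.8%, against 59.7% of all 17533 loci compared) and 10 were higher (32.3%, against 7.11%), with a median of 0.41 beside -1.30. Of those 31, 9 reached 1 FPKM in grain alone and 3 in root alone. Over the 19 at 1 FPKM or more in both the median was 0.10 (all loci -1.05), and over the 11 at 5 FPKM or more in at least 1 library it was -1.18 (all loci -1.58). Antenna loci had 10 of 14 ratios above 0 in Lalat (16.5% of all loci). Of these 14, 4 reached 1 FPKM in grain alone and 2 in root alone, which fixed their direction. Of the 8 antenna loci at 1 FPKM or more in both, 6 were above 0 and 2 below, with a median of 0.23. The highest ratio of the 31 was 1.68 for LOC_Os01g41710, while LOC_Os01g52240 and LOC_Os03g55720 had the lowest at -4.54 and -4.50. The difference between the cultivars in this contrast was not tested.

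Plastid-type loci were at or near the limit of counting in all 4 libraries. Of those above 0, 15 of 41 exceeded the range of a single fragment in Sharbati grain, 13 of 40 in Lalat grain, 7 of 39 in Sharbati root and 2 of 20 in Lalat root. Their 48 entries give 37 distinct sets of values, because 18 of them share all their values with another entry, so copies are not independent measurements. They lie on 10 chromosomes, 14 of them on chromosome 10. Whether their fragments came from the nuclear copies or from plastid transcripts cannot be told from these tables. The libraries were poly(A)-selected, and plastid transcripts mostly lack long poly(A) tails. Their summed level was 7.61 FPKM in Sharbati grain, 7.91 in Lalat grain, 257 in Sharbati root and 6.28 in Lalat root. No entry passed the filter in grain or in the organ contrast of Lalat, and the highest values there were 1.10, 0.834 and 1.14 FPKM.

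In root, the compared plastid-type loci were all higher in Sharbati. All 18 ratios lay above 0, from 0.91 to 3.22 with a median of 1.43, and 17 were past 2-fold (94.4%, beside 5.51% of all loci). The filter fixed this direction for 17 of the 18, which reached 1 FPKM in Sharbati alone. Of 39 plastid-type loci above 0 in Sharbati root, 32 lay within the range of a single fragment, which takes no account of length. From their deposited p-values, 6 loci were themselves read as exactly 1 fragment. Among these, LOC_Os01g58038, LOC_Os02g24628 and LOC_Os04g16876, all for photosystem II protein Z (PsbZ, a small core subunit), share 1 set of values, 0 FPKM in Sharbati grain, 0.386 in Lalat grain, 38.2 in Sharbati root and 0 in Lalat root, and 38.2 FPKM was the highest value read as 1 fragment in that library.

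Besides the PsbZ loci, 4 plastid-type loci exceeded the range of a single fragment in Sharbati root, 2 of them for the Rubisco large subunit. This is the catalytic chain of the enzyme, and its locus LOC_Os10g21268 was at 0.409 FPKM in Sharbati grain, 0.339 in Lalat grain, 12.4 in Sharbati root and 0.436 in Lalat root. Its root ratio of 3.22 (p = 0.00206 in the authors' deposited table, not called) was the highest of the plastid-type loci. LOC_Os01g58020 was at 0.490, 0.755, 24.6 and 0 FPKM, again high in Sharbati root alone. The other 2 were LOC_Os01g57945, subunit 4 of cytochrome b6f, at 0.0198, 0.0345, 9.77 and 0 FPKM, and the photosystem II core locus LOC_Os10g21192 at 0.495, 0.577, 9.29 and 0 FPKM. Just below the limit, cytochrome b6, at 3 loci with shared values, was at 0.0197, 0.0618, 7.04 and 0 FPKM. In each of these loci both grain libraries and Lalat root lay under 1 FPKM. The loci were chosen for a high value in Sharbati root, a choice that favours this pattern. Apart from LOC_Os10g21268, their root p-values ran from 0.105 to 0.154 in the authors' deposited table. The value read as 1 fragment against none was 0.158655. Of the 40 plastid-type loci listed for root, 9 had a deposited p-value under 0.05, copies with shared values among them. LOC_Os10g21310, a photosystem II P680 apoprotein below the limit, was at 0.0659, 0.0147, 5.88 and 0.242 FPKM. Its root ratio was 2.47 (p = 0.00877 in the authors' deposited table, not called).

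Transcripts of mitochondrial products were also highest in Sharbati root. Loci described by products that mitochondria encode (13 loci, 2 of them named for a maturase K, a plastid product) summed to 11.8 FPKM in Sharbati grain, 14.2 in Lalat grain, 1412 in Sharbati root and 20.4 in Lalat root. Of these 13, 10 were above 0 in Sharbati root, all 10 at least 2-fold higher there than in Lalat root (5.51% of all loci compared), and 5 of the 13 were called in the authors' deposited table (1.14% of all listed loci). For 5 of the 10 compared, the filter fixed the direction, since they reached 1 FPKM in Sharbati alone. The 3 loci at 0 in Sharbati root, with 1.02 to 2.65 FPKM in Lalat root, were not compared. The part of the mitochondrial products in the plastid-type result was not tested. In Sharbati, 29 of 31 plastid-type loci compared were at least 2-fold lower in grain than in root (51% of all loci compared), with a median of -1.68 beside -1.04 for all loci, and all 31 passed the filter through root alone. None of the plastid-type loci was called in the authors' deposited tables for grain or root.

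Plastocyanin-like domain proteins were, in contrast, among the most abundant transcripts of root. Their summed level was 183 FPKM in Sharbati grain, 187 in Lalat grain, 55304 in Sharbati root and 18861 in Lalat root. They held 0.0212% and 0.0294% of the summed FPKM of the grain libraries but 10.0% and 2.14% of the root libraries. One locus made most of this. LOC_Os11g24140 was at 46573 FPKM (Sharbati) and 14243 FPKM (Lalat) in root, is not listed for grain, and was the highest locus of both root libraries with 8.45% and 1.62% of the summed FPKM. Its root ratio was 1.71, and its deposited p was 0.881 in the authors' deposited table.

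Further loci of the family were high in root of both cultivars and low in grain. LOC_Os08g37670 was at 1.71 FPKM in Sharbati grain, 6.44 in Lalat grain, 3923 in Sharbati root and 1221 in Lalat root. LOC_Os03g63390 was at 0, 0.290, 1535 and 608 FPKM, and LOC_Os03g50160 at 0.155, 0.431, 1258 and 427. These are the 4 highest loci of the family in Sharbati root, a choice that favours a higher value there, and their ratios ran from 1.34 to 1.71. LOC_Os08g37660 was at 0.231, 0.369, 882 and 1062 FPKM, about level between root libraries and in Lalat root above 2 of those 4, LOC_Os03g63390 and LOC_Os03g50160. About level too were LOC_Os03g44630 (231 and 248 FPKM) and LOC_Os08g04340 (280 and 359 FPKM). Scaling by the median ratio turned the ratios of these 3 from -0.27, -0.11 and -0.36 to 0.73, 0.89 and 0.64.

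**Figure D4:**
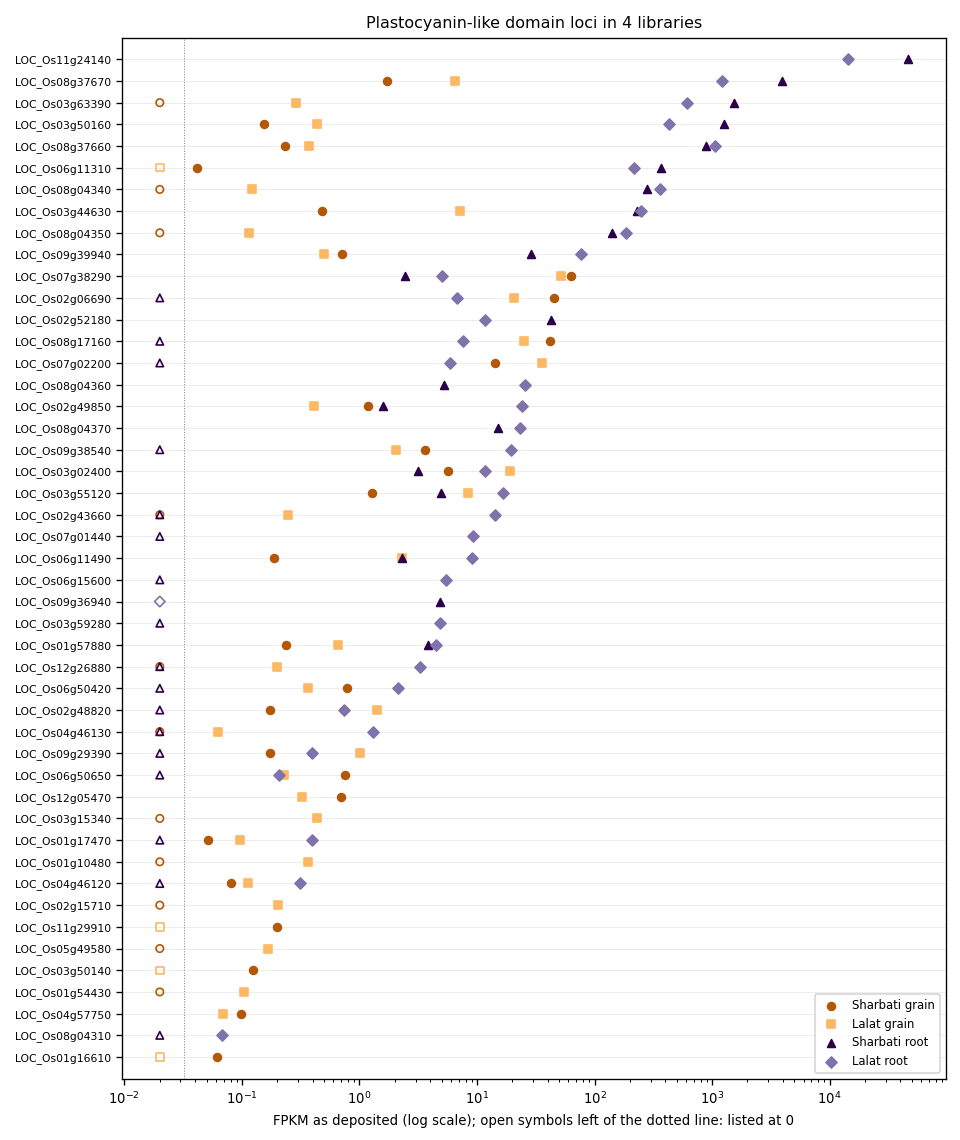
FPKM (log scale) of the 47 plastocyanin-like domain loci in the 4 libraries, ordered by their highest value, with open symbols for loci listed at 0 and no symbol where a locus is not listed. The uppermost 9 loci exceed 100 FPKM in both root libraries and stay below 10 FPKM wherever grain values are listed, and 5 loci exceed 10 FPKM in Lalat grain.

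Over the 19 plastocyanin-like loci compared in root, 5 were at least 2-fold higher in Sharbati (5.51% of all loci) and 6 lower (46.7% of all loci). Their median was -0.36 as deposited beside -0.92 for all loci, and 0.60 beside -0.03 when Lalat was scaled. A smaller group was high in grain. LOC_Os07g38290 was at 63.6 FPKM in Sharbati grain, 51.8 in Lalat grain, 2.45 in Sharbati root and 5.05 in Lalat root. LOC_Os02g06690 was at 45.2, 20.5, 0 and 6.77 FPKM, and LOC_Os08g17160 at 41.6, 25.01, 0 and 7.61. These 3 were higher in Sharbati grain, the second of them past 2-fold (1.11), whereas LOC_Os07g02200 at 14.1, 36.0, 0 and 5.85 FPKM was lower there (-1.29).

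In grain, 7 of 13 plastocyanin-like loci compared were at least 2-fold lower in Sharbati and 1 was higher, against 17.4% and 6.31% of all loci compared. Of the 13, 4 reached 1 FPKM in Lalat alone and 1 in Sharbati alone. Over the 8 at 1 FPKM or more in both, 4 were below 0, all past 2-fold, and 4 above it, 1 of them past 2-fold. Their median was -0.50 beside -0.24 for all such loci. The authors' deposited table called 2 of the 38 listed for grain, a share near the 3.89% of all listed loci. LOC_Os03g44630 was at 0.482 FPKM in grain of Sharbati and 7.12 in that of Lalat, a ratio of -2.45 (p = 0.000139 in the authors' deposited table), but shares its deposited region with a neighbouring dnaJ locus. LOC_Os03g55120 was at 1.27 and 8.33 FPKM in grain, a ratio of -2.04 (p = 0.00183 in the authors' deposited table), and at 4.95 and 16.6 FPKM in root, so it was higher in Lalat in both organs. The same held for LOC_Os03g02400, at 5.64, 19.1, 3.16 and 11.8 FPKM. The root ratios of these 2 loci, -1.57 and -1.62, became -0.65 and -0.73 when Lalat was scaled. Both Sharbati root values lay within the range of a single fragment. None of the 37 listed for root was called, beside 1.14% of all listed loci.

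Between organs, plastocyanin-like loci lay in both directions. In Sharbati, 9 of 12 loci compared were at least 2-fold lower in grain and 1 was higher (51% and 14% of all loci), with a median of -3.04 beside -1.04 for all loci. In Lalat 16 of 24 were lower, near the 59.7% of all loci, and 4 higher (7.11% of all loci), with a median of -1.77 beside -1.30. The filter fixed the direction of loci that reached 1 FPKM in 1 organ alone. These were 7 of the 12 in Sharbati, all by root, and in Lalat 12 by root and 2 by grain. At 1 FPKM or more in both libraries, 2 of 5 were lower and 1 higher in Sharbati (median -0.24, all such loci -0.45). In Lalat 4 of 10 were lower and 4 higher (median -0.13, all such loci -1.05). On these medians the loci were less low in grain than all such loci. The 4 loci higher in Lalat grain included LOC_Os07g38290 (ratio 3.12) and LOC_Os07g02200 (2.43). In Sharbati the lowest ratios were -10.50 for LOC_Os08g37670 and -10.09 for LOC_Os03g50160.

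Neighbouring pathways were followed through lists built from description words. Their counts at 2-fold are to be read beside those of all loci compared, of which 17.4% were lower and 6.31% higher in Sharbati grain, and 46.7% lower and 5.51% higher in Sharbati root. A list of loci described by ferredoxin or thylakoid words had all 13 grain ratios below 0 (67.8% of all loci), with a median of -0.87 beside -0.35, and 4 were at least 2-fold lower. All 10 of those at 1 FPKM or more in both libraries were below 0, and the other 3 reached it in Lalat alone. The list is wider than photosynthetic electron transport, since the 13 include a ferredoxin-nitrite reductase (LOC_Os05g42350) and a ferredoxin-dependent glutamate synthase (LOC_Os07g46460), enzymes of nitrogen assimilation, and a bilin oxidoreductase (LOC_Os01g72090). In root it had 1 higher and 3 lower of 13 (median -0.43 beside -0.92). The ferredoxin-NADP reductase LOC_Os07g05400, which makes NADPH at the end of the electron chain, was at 1.70 FPKM in Sharbati grain, 18.1 in Lalat grain, 2.24 in Sharbati root and 16.7 in Lalat root. It was thus higher in Lalat in both organs, with ratios of -2.83 and -2.45, though its Sharbati root value lay within the range of a single fragment. THYLAKOID FORMATION1 (LOC_Os07g37250), needed for thylakoid membranes in Arabidopsis, was at 2.08, 11.01, 15.5 and 29.5 FPKM, with a grain ratio of -1.96. The authors' deposited table called 4 of the 24 loci of the list in grain (3.89% of all listed loci) and none of the 23 in root (1.14%).

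The chlorophyll synthesis list had 1 locus higher and 1 lower of 10 compared in grain (median -0.53) and none higher and 5 lower of 10 in root (-0.93), though several of its entries are protein geranylgeranyl transferases and not enzymes of the pigment. Coproporphyrinogen III oxidase LOC_Os04g52130, an early step shared with heme synthesis, was at 121 FPKM in Sharbati grain, 60.7 in Lalat grain, 36.4 in Sharbati root and 164 in Lalat root, so the cultivar order turned between organs. Calvin cycle enzymes other than Rubisco, a list that also catches cytosolic glycolytic forms, had 3 lower and none higher of 24 in grain (median -0.22) and 9 lower and none higher of 23 in root (-0.71). Both shares lower in Sharbati, 12.5% and 39.1%, were below those of all loci. The fructose-1,6-bisphosphatase locus LOC_Os05g36270 was at 7.97, 32.1, 70.4 and 156 FPKM, lower in Sharbati in both organs as deposited. Its ratio was -1.88 in grain and -1.14 in root, the latter near the general root shift of -0.999.

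A carbon refixation list held loci described as pyruvate, phosphate dikinase, phosphoenolpyruvate carboxylase, malic enzyme or carbonic anhydrase. It is wider than its name, since not all of these enzymes fix carbon dioxide. In grain it had 1 higher and 2 lower of 15 (median -0.30 beside -0.35 for all loci). In root it had 1 higher and 6 lower of 14 (-0.81 beside -0.92), and both were close to the general shares. The authors' deposited table called none of the 23 listed for grain (3.89% of all listed loci). It called 2 of the 19 listed for root, a larger share than the 1.14% of all listed loci. Pyruvate, phosphate dikinase LOC_Os05g33570, which makes phosphoenolpyruvate and is abundant in filling rice endosperm, was at 394 FPKM in Sharbati grain, 634 in Lalat grain, 3.94 in Sharbati root and 122 in Lalat root. Its second copy LOC_Os03g31750 was at 1.35, 0.745, 96.0 and 122 FPKM, so the first copy was the higher one in grain and both were present in Lalat root. Photorespiration, which salvages the product of the oxygenase reaction of Rubisco, had 4 lower and none higher of 13 in grain (median -0.64) and 9 lower and none higher of 13 in root (-1.64), beside medians of -0.35 and -0.92 for all loci. In grain 3 of the 13 reached 1 FPKM in Lalat alone, and in root 1 did. Chlorophyll breakdown left 1 locus compared in grain and 2 in root, all lower in Sharbati.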

How the data were processed

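RNA-seq of grain and root of 2 rice cultivars gave 4 libraries, 1 per group. Per the submitters' processing notes, TopHat 1.3.3, Bowtie 0.12.9, Cuffdiff and Cufflinks 1.3.0 were used, and the genome build was not given in the sources used here. Values are FPKM as deposited by the authors, with the p-value and call of their comparison of the 2 libraries of an organ (false discovery rate of 0.05, per the labels). The deposited log ratio was not used. Read totals were not used here, and the FPKM value of 1 fragment was read from loci at 0 in the partner library with a deposited p-value of 0.158655. This covers counting error only.

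Distinct transcript values of a locus were summed. Ratios were log2((a + 1)/(b + 1)), for loci above 0 in both libraries and at 1 FPKM or more in at least 1, with Python 3.11.15 and pandas 2.3.3, and the calculation was tested on simulated data. Named loci were taken from up to 3 per role class by highest FPKM and up to 2 per related list. Others were taken from up to 3 at each end of each comparison at 5 FPKM or more. Not every locus under that rule is named. LOC_Os07g38960, LOC_Os08g02630, LOC_Os10g21192, LOC_Os12g19470, LOC_Os05g42350, LOC_Os07g46460 and LOC_Os01g72090 lie outside that rule and were chosen after their values were seen. The members and lists were chosen with earlier results of these data known. Alternatives were other pseudocounts, filters, a scaling, a 4-fold threshold and sets without the plastocyanin-like proteins.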

Additional observations from a re-analysis of the deposited data

Results flagged for a closer look

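LOC_Os08g37670, a plastocyanin-like domain protein, differed in direction between organs. It was lower in Sharbati than in Lalat in grain (1.71 and 6.44 FPKM, ratio -1.46) and higher in root (3923 and 1221 FPKM, ratio 1.68), a difference between the ratios of -3.14. With 1 library per group this difference was not tested.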

How the results depend on the processing

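As reported, the share of compared nuclear loci (plastocyanin-like ones included) apart by 2-fold was 23.3% lower in Sharbati grain, 26.8% higher in Sharbati root, 58.3% lower in grain than root in Sharbati and 43.6% in Lalat. Plastid-type shares were 94.4% higher in Sharbati root and 93.5% lower in Sharbati grain than root, and related lists gave 18.4% lower in Sharbati in grain and 45.3% in root. Over all loci, 17.4% were lower in Sharbati grain, 5.51% higher and 46.7% lower in Sharbati root, and 51% (Sharbati) and 59.7% (Lalat) lower in grain than root, so the related lists lay near the general shares. Plastid-type loci gave no value in grain or in the organ contrast of Lalat. Of the recomputed shares, 53 lay within a binomial interval of the reported value and 36 outside it, but loci are not independent and the interval is no measure of stability. In the order given, a 4-fold threshold moved them to 4.65, 0, 22.2, 23.6, 11.1, 32.3, 1.32 and 20% (all loci 2.19, 1.61, 17.2, 27.1 and 31.8% in their order above), and a pseudocount of 5 FPKM to 9.30, 12.2, 22.2, 29.1, 11.1, 25.8, 9.21 and 33.3% (all loci 4.75, 2.33, 32.3, 30.6 and 39.7%). A pseudocount of 0.1 FPKM moved nuclear grain to 39.5%, related lists in grain to 32.9% and both plastid-type shares to 100% (all loci 29.2% in grain, 7.27% in root and 55.7% between organs). Scaling by the median ratio moved nuclear root to 43.9%, nuclear organ shares to 33.3% in Sharbati and 25.5% in Lalat, plastid-type shares to 100% in root and 74.2% between organs, and related lists in root to 21.3% (all loci 15.1% higher and 19.1% lower in root, 39.9% and 31.8% between organs). A filter of 5 FPKM in at least 1 library moved nuclear grain to 50%, the Lalat organ share to 62.1% and both plastid-type shares to 100% (all loci 18.4% in grain, 64.9% in Lalat, 4.13% in root and 52.5% in Sharbati). With 5 FPKM required in both, the Sharbati organ share was 0% of 2 loci, the Lalat one 30.0%, and related lists in root 31.8% (all loci 30.7, 46.0 and 40.7%). Requiring 1 FPKM in both left 1 plastid-type locus in root (100%, all loci 3.29%). Without plastocyanin-like proteins nuclear grain was 10.0% and the Lalat organ share 25.8%.

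Medians of nuclear loci changed sign in grain (0.29 with 5 FPKM in both), in root (0.025 with no filter, 0.73 scaled, 0.45 without plastocyanin-like proteins), in the Sharbati organ contrast (0.91 with 5 FPKM in both) and in the Lalat one (-0.18 with no filter, -1.63 with 5 FPKM in at least 1, -1.08 with unlisted loci at 0). Medians of all loci stayed below 0 in each of these. The median of related lists in root turned to 0.052 when scaled (all loci -0.03). The cause was not tested. No paired analysis was possible because each group has 1 library and no replicate numbers to pair. The depth of Sharbati root limits all root values of weakly expressed loci.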
